A study of Mus musculus and Canis lupus familiaris and Equus caballus with 9 samples.

Results

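The mouse genes Nppa, Nppb, Nppc, Crh, Tac1, Npy, Sst, Vip, Adcyap1 and Trh encode precursors of natriuretic peptides and neuropeptides. They were taken as a named list of 10 genes, out of 21887 protein-coding genes placed on the chromosomes 1 to 19, X and Y of the RefSeq annotation of GRCm38.p6, the assembly that mm10 denotes. All 10 symbols matched. The binding data were positions of NRSF (also named REST) from chromatin immunoprecipitation and sequencing in RAW264.7, an established macrophage line from BALB/c mice that was transformed with a virus, at passages 13 to 15. The 3 mouse samples were 2 immunoprecipitations with the monoclonal antibody 12C11-1B11 and 1 input DNA without antibody. The labels name no treatment or genetic change. The series also holds dog and horse samples, which make up the rest of its 9 samples and were not used here. The 2 immunoprecipitations share 1 deposited list of 2357 peaks, each 400 bp wide. It gives positions only, without score or signal, so no value has a replicate error and the read depth is unknown. RAW264.7 cells are not of the heart or brain, and no expression values were used, so neither the cell type nor the silence of any of these genes could be checked.

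NRSF recognises an extended DNA element, called NRSE or RE1, through its zinc fingers and recruits corepressors with histone deacetylase and demethylase activity. It is known for keeping neuronal and neuroendocrine genes silent in other tissues. The peptide precursors are short genes whose products are cut, often amidated, and released from secretory granules. Atrial and brain natriuretic peptide are hormones of heart muscle, and the re-expression of their genes in stressed ventricles has been tied to the loss of NRSF repression.

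Of the 10 genes, 6 had a peak with its midpoint inside the annotated span or within 10 kb of either end, against a background of 7.49% of all protein-coding genes. These were the natriuretic peptide genes Nppa and Nppb and the neuropeptide genes Crh, Sst, Vip and Adcyap1. The other 4, namely the natriuretic peptide gene Nppc and the neuropeptide genes Tac1, Npy and Trh, had no peak within 10 kb, and their closest peaks lay 129 to 1270 kb away. There was nothing in between: the farthest peak of the 6 lay 391 bp outside the span. Each of the 6 had exactly 1 peak in reach, the 6 peaks were distinct, and each peak had its precursor gene as the closest protein-coding gene. Members and the other gene lists were chosen with earlier results of these data known, so the counts are descriptions and no test was made over them.

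The peak and start site of Vip lie close enough for the sequence under the peak to be read in part. Its RefSeq promoter window (GRCm38.p6), from 250 bases before to 50 after the start site, is chr10:5638968-5639267 on the plus strand. The capitals mark the 168 bases inside the peak, which runs from 5639100 to 5639500. Windows were matched for 9 of the 10 genes, all but Crh, and among them this is the one that a peak overlapped.

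Vip: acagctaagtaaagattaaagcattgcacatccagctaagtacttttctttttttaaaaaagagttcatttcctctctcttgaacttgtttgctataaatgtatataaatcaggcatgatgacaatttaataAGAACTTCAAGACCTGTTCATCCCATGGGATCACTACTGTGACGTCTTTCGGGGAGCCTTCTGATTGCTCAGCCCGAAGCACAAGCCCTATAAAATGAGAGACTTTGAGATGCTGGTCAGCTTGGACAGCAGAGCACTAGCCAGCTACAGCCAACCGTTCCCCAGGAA

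The canonical form of the NRSF element was searched as a left arm, TTCAGCACC, and a right arm, GGACAGCGC, with 2 bases between them, on both strands, counting mismatches over the 18 letters. A window of Lhx3, a homeodomain factor gene, is shown beside the members because it matched all 18 letters and had 276 of its 300 bases in a peak. Its site is chr2:26208273-26208292 on the minus strand. The best sites of the windows of Vip (chr10:5639167-5639186) and of Tac1 (chr6:7555085-7555104), both on the plus strand, follow, with capitals for the letters that match an arm. Where sites of a window tied, the first is shown. The Vip window had such a tie. A later site with 7 mismatches, also in the peak part, reads GGACAGC at the start of its right arm.

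Lhx3: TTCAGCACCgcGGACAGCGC
Vip: cTCAGCcCgaaGcACAagcC
Tac1: TcCtGCACCgcGGcCAagGa

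No window of the members came close to the whole element of 2 arms. RefSeq windows were matched for 9 of the 10 genes, all but Crh, with 10 windows since Adcyap1 has 2. Their best sites had 6 to 8 mismatches, the lowest being that of Tac1, a gene without a peak. The Vip site, with 7 mismatches, was matched as well or better by 65.7% of all 21263 coding promoter windows. At most 3 mismatches were found in 0 of the 10 windows, in 14 of the 124 windows with a base in a peak (11.3%) and in 33 of all 21263 windows (0.155%). Arms spaced otherwise were not searched. The midpoints of the Vip, Nppb, Sst and Adcyap1 peaks, and that of the Nppa peak at the far end of its gene, all lay outside the windows. The absence of a match therefore says only that these letters are not in the windows, not what lies under the middle of the peaks.

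The natriuretic peptide genes were considered first. Nppa encodes the precursor of atrial natriuretic peptide, which lowers blood volume and pressure through a guanylyl cyclase receptor. Its span is chr4:148000722-148002074 on the plus strand, 1353 bp long. The peak at 148001875 to 148002275 had its midpoint 1 bp beyond the end of the span, 1353 bp downstream of the start site. It thus covered the last part of the gene and the sequence past its 3′ end, and not the promoter. The exons and UTRs were not given in the table used, so the peak was not assigned to one. Clcn6, a chloride transporter gene, lay 2184 bp further on.

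Nppb encodes brain natriuretic peptide, a ventricular hormone measured as a marker of heart failure. It lies beside Nppa on the same strand, at chr4:147985786-147987205, with 13516 bp between the spans. Its peak at 147985195 to 147985595 had its midpoint 391 bp before the span and 505 bp upstream of the RefSeq start site. The pair thus had a peak upstream of one gene and at the downstream end of the other. The midpoints of these peaks were 16680 bp apart with 0 peaks between them.

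Nppc encodes C-type natriuretic peptide, which acts on bone growth and blood vessels through another guanylyl cyclase receptor. It lies on chromosome 1, away from its relatives, at 86666293 to 86670573 on the minus strand. Its closest peak was 610.0 kb away and lay inside Efhd1. As many as 69.0% of protein-coding genes had a peak as close or closer.

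Among the neuropeptide genes, Crh encodes corticotropin-releasing hormone, which starts the pituitary and adrenal stress response. Its span is chr3:19693401-19695396, 1996 bp long. The peak at 19694435 to 19694835 lay wholly inside it, with the midpoint 761 bp from the closer end. The long noncoding RNA gene Gm42189 overlapped the same peak, and Trim55, which encodes a muscle ubiquitin ligase, lay 2051 bp from its midpoint.

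Sst encodes somatostatin, an inhibitor of growth hormone and insulin release that also marks a class of cortical interneurons. Its span is chr16:23889573-23891342 on the minus strand. The peak at 23890160 to 23890560 lay inside the gene, with its midpoint 484 bp downstream of the RefSeq start site. The next coding gene, Rtp2, was 35.2 kb from that midpoint, and no other gene of any kind lay within 10 kb.

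Vip encodes vasoactive intestinal peptide, a transmitter of the gut, of cortical interneurons and of the circadian clock. Its span is chr10:5639193-5647617 on the plus strand. The midpoint of its peak lay 82 bp downstream of the start site, the closest of the members. Adcyap1 encodes PACAP, a peptide of the same family as VIP. Its span is chr17:93198245-93206541 on the plus strand. The peak at 93198235 to 93198635 had its midpoint 190 bp inside the span, and 582 and 733 bp upstream of the RefSeq start sites. The long noncoding RNA gene Gm32465 overlapped it. The second closest coding gene, Mettl4, was 1520 kb away, which makes Adcyap1 the most isolated of the 6.

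**Figure D1:**
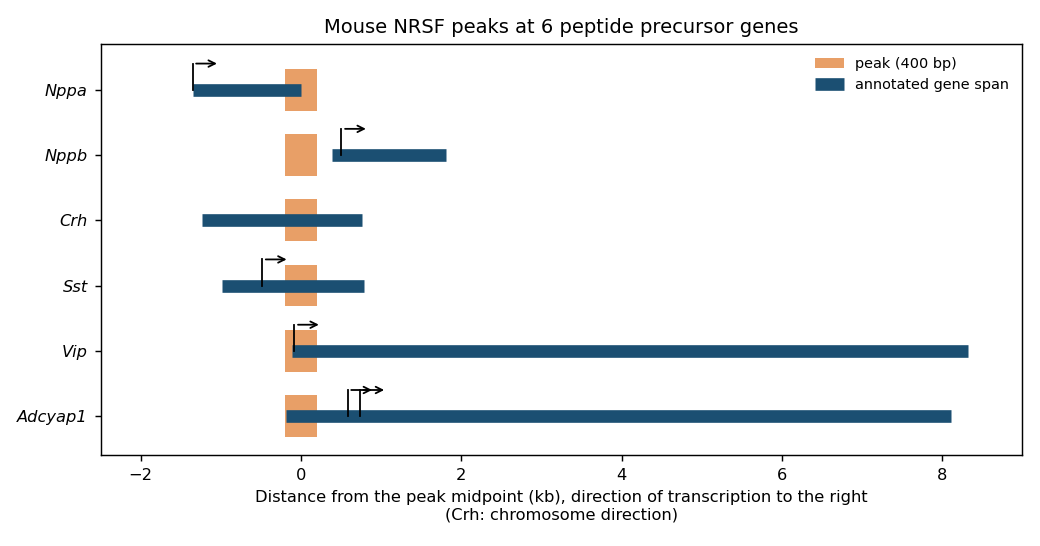
Annotated spans (blue bars), RefSeq start sites (arrows) and 400 bp peaks (orange boxes) of the 6 genes with a peak, in kb from the peak midpoint. The Nppa peak sits at the downstream end of its gene, 1353 bp from the start site, the Nppb peak lies outside the gene on its upstream side, and the Sst, Vip and Adcyap1 peaks lie 484, 82 and 582 bp from the closest start site.

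The peaks lay at gene ends and start sites more closely than the 10 kb reach asks for. Of the 10 genes, 6 had a midpoint less than 1 kb from a gene end, against 1.58% of all protein-coding genes. Among genes with a peak within 10 kb, these were 6 of 6 members, next to 345 of 1640 coding genes (21.0%) and 106 of the 313 that are no longer than Vip (33.9%). Of the 9 members with a RefSeq start site, 4 had a peak within 1 kb of it (Nppb, Sst, Vip and Adcyap1), against 1.35% of the 17492 coding genes with one. The Nppa peak was outside this limit. For these genes, of 1353 to 8425 bp, a midpoint inside the span is never far from an end, so the distances are in part set by gene length. Among the 7143 coding genes no longer than Vip, the longest member, 4.38% had a peak within 10 kb.

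Of the genes without a peak, Tac1, the precursor of substance P and neurokinin A, stood closest. Its span is chr6:7555061-7562978 on the plus strand, and the closest peak was 129 kb above it, inside the asparagine synthetase gene Asns. A peak as close was found at 30.1% of protein-coding genes. Trh, the precursor of thyrotropin-releasing hormone, lies at chr6:92242061-92244650 on the minus strand and had its closest peak 402 kb away, inside the gene of the synaptic scaffold protein Grip2. Npy, the precursor of neuropeptide Y, lies at chr6:49822710-49829507 on the plus strand. Its closest peak was 1270 kb away and 1735 bp from Lrrc61, and 85.3% of protein-coding genes had one closer or as close. These 3 genes all lie on chromosome 6, which held peaks close to other genes. A missing peak does not show that NRSF is absent, since neither the depth nor the threshold of the list is known.

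Moved windows gave the local background. With the peaks moved by 200 kb, up or down the chromosome, 0 of the 10 genes had a window within 10 kb, against 7.17% (up) and 7.0% (down) of all protein-coding genes and 3.33% and 3.44% of those no longer than Vip. The moved window closest to a member was 22.9 kb from Nppb, in the upward move. For Nppa the moved windows lay 37.8 kb (up) and 27.8 kb (down) away, compared with 1 bp for its peak. For Sst, Vip and Adcyap1 they lay 192 to 200 kb away, close to the size of the move itself, because these genes had no other peaks nearby. Of the 4 genes without a peak, Tac1 had the closest moved window, at 62.8 kb. This was its own closest peak, 129 kb above, carried past the gene by the downward move, so it tells nothing of other peaks. For Trh, Nppc and Npy, whose closest peaks are more than 200 kb away, the move itself brings that peak 200 kb closer in one direction, so their moved distances add nothing.

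**Figure D2:**
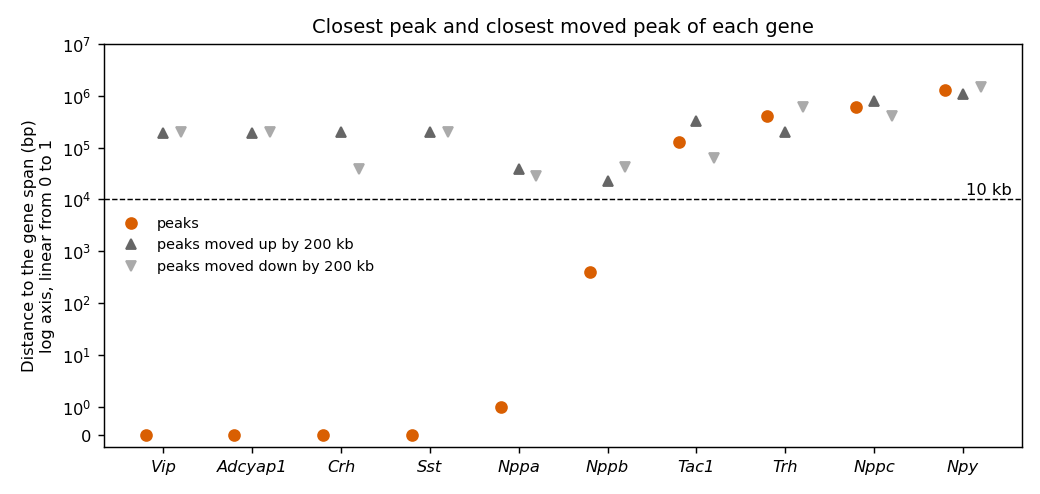
Distance in bp from each gene span to its closest peak (orange circles) and to the closest peak moved by 200 kb up or down (grey triangles), on a log axis that is linear from 0 to 1. Circles of 6 genes lie at 391 bp or less and those of 4 genes at 129 kb or more, and 0 of the 20 triangles lie under the dashed line at 10 kb.

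The surroundings of the genes were unlike each other. Nppa and Nppb had 36 and 38 peaks within 1 Mb of their middle, against a median of 2 over protein-coding genes (quartiles 1 and 4), and 0.105% and 0.0959% of those genes had as many. They lie at the upper edge of a block of dense peaks on chromosome 4, where the megabases from 145 to 148 held 13, 21 and 31 peaks and the next one held 5. The Nppb peak is in the last megabase of the block and the Nppa peak in the one after it. Within the block's edge the pair stood apart, however. Apart from the peaks of the pair, 1 peak 28.4 kb below Nppb lay within 200 kb of it, and the next lay 223 kb below and 243 kb above its span. Without the peaks of all 1 Mb bins that held 10 or more, 5 of the 10 genes still had a peak, Nppb having lost its own. Nppa kept its peak because the midpoint, at 148002075, falls just past the bin border at 148 Mb. The count of 5 thus depends on where that border lies.

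The other 8 genes had 0 to 3 peaks within 1 Mb. Around Adcyap1 its own peak was the only one, and the second closest was 6260 kb away. Sst and Vip each had 1 further peak, 990 and 888 kb away, and Crh had 2, the closer at 239 kb. The genes without a peak had surroundings of like density, with 2 for Tac1 and for Trh, 1 for Nppc and 0 for Npy.

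**Figure D3:**
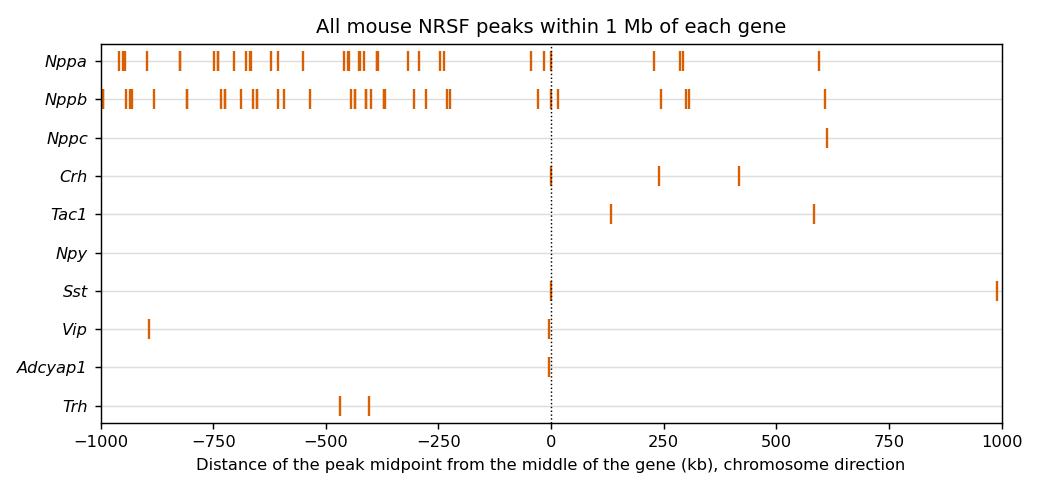
All mouse peaks within 1 Mb of the middle of each gene, in kb and in chromosome direction, with 1 orange mark per peak. Nppa and Nppb have 36 and 38 marks, most of them on the lower side, whereas Adcyap1 has a single mark at the gene itself and Npy has 0.

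Base composition of the promoter windows was compared, since the choice of the genes did not use it. Among the genes with a peak the GC content was 55.7% in Nppb, 54.7% in Nppa, 50.3% in Sst, 41.7% in Vip, and 39.0% and 45.7% in the windows of Adcyap1. In the 4 genes without a peak it was 69.3% in Nppc, 68.0% in Npy, 67.0% in Trh and 54.0% in Tac1. The genes without a peak were thus the GC-rich ones with the exception of Tac1, whose value lay below those of Nppa and Nppb. CpG pairs stood at 0.28 to 0.71 times the number expected from base content in the genes with a peak and at 0.69 to 1.01 times in the genes without a peak, so that Npy, at 0.69, fell below Sst, at 0.71. Over all coding windows the medians were 56.3% GC and 0.567 for CpG. Over all coding genes split in the same way, by a peak inside the span or within 10 kb, the order was the other way round. The 1680 windows of genes with a peak had a median GC of 59.7%, against 56.0% in the 19583 others, and CpG medians of 0.653 and 0.557. With 9 genes, the difference among the members was not tested.

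**Figure D4:**
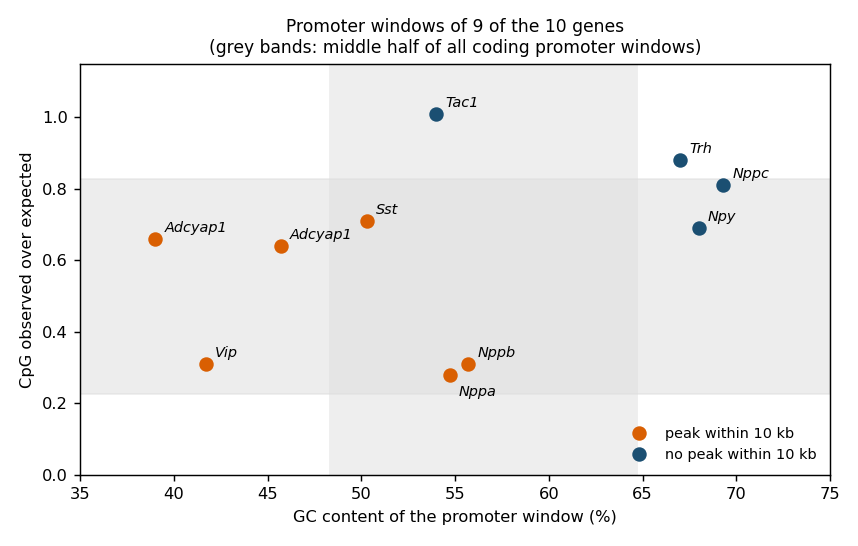
GC content in percent against CpG observed over expected for the 10 promoter windows of 9 genes, coloured by the presence of a peak within 10 kb, with grey bands for the middle 50% of all coding windows. Windows of genes with a peak (orange) lie at 55.7% GC or less, and 3 of the 4 windows of genes without one (blue) lie at 67.0% or more.

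Peptide precursors outside the list of 10 were counted in the same way. Of 50 further genes listed, 5 carried one in the same reach (10.0%), next to 6 of the 10 members and 7.49% of all protein-coding genes. The share of the 50 genes is near that of all protein-coding genes, but their median length is 5338 bp, against 17169 bp. Among coding genes no longer than Vip, 4.38% had a peak within 10 kb. Within 1 kb the shares were 8.0% of the 50, 5.0% of all coding genes and 1.75% of those no longer than Vip. That last set is not matched to the 50 in length. Its median is 3203 bp and its longest gene 8425 bp, whereas the 50 range from 624 to 30283 bp. Cartpt (11697 bp) and Nms (11128 bp), which had a peak, are longer than Vip. With peaks moved by 200 kb, 1 of the 50 had a window within 10 kb in the upward move and 2 in the downward one. Pomc, the precursor of ACTH and beta-endorphin, had a peak 680 bp downstream of its start site. Nms, which encodes the circadian peptide neuromedin S, had one 646 bp downstream. Cartpt, the precursor of the feeding peptide CART, had one 53 bp downstream. Ucn encodes urocortin, a ligand of the CRH receptors, and had a peak 320 bp upstream of its start site. Hcrt, the precursor of the wake-promoting orexins, had its peak 2688 bp outside the span, 3926 bp downstream of the start site. The 4 closer ones thus sat within 1 kb of a start site, as the peaks of 4 of the members did. Of all coding genes with a RefSeq start site, 1.35% had a peak that close. In all, 11 of 60 precursor genes had a peak.

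The promoter windows of Cartpt and Ucn were also overlapped by a peak and are shown for comparison with that of Vip, again with the bases inside the peak in capitals. They are chr13:99900634-99900933 and chr5:31138846-31139145, both on the minus strand, with 197 and 131 bases in a peak. Both hold the letters TGACGTCA of the cAMP response element, as does the window of Sst, which no peak overlapped. In Cartpt the letters lie inside the peak and in Ucn outside it. Read on both strands, they occur in 10 of the 124 coding windows with a base in a peak (8.06%) and in 2.23% of all coding windows. For the NRSF element, the best sites of Cartpt and Ucn had 7 mismatches each.

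Cartpt: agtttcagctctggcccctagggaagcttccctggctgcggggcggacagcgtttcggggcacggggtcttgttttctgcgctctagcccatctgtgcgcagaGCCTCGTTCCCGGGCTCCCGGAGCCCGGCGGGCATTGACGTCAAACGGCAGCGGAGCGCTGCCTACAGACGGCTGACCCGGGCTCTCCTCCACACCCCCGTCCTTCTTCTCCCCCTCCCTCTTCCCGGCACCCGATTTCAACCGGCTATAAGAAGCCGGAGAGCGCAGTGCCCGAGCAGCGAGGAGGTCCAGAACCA
Ucn: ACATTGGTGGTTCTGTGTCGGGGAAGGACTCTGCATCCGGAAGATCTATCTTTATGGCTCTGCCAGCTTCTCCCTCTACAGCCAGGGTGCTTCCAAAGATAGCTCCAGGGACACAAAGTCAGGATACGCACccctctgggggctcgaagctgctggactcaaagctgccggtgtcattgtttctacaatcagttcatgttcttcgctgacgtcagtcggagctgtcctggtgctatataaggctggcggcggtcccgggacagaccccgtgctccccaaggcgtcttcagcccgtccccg

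Receptors for the 10 peptides had a peak at 3 of 23 genes (13.0%), next to 7.49% of all protein-coding genes and 1 of 23 with the windows moved either way. Within 1 or 5 kb the count was 2 (8.7%). These were Crhr2, a receptor for CRH and the urocortins, Vipr2, a receptor shared by VIP and PACAP, and Adcyap1r1, the receptor selective for PACAP. The Crhr2 and Vipr2 peaks lay deep inside the genes, 24471 and 25319 bp downstream of a start site, and the Adcyap1r1 peak 5310 bp outside the span at its far end. All 3 belong to the 5 receptors of CRH, VIP and PACAP, while 0 of the 18 receptors for natriuretic peptides, tachykinins, NPY, somatostatin and TRH had one. This grouping was made after the values were seen and depends on the reach, since the closest peak of the natriuretic peptide receptor gene Npr2 lay 12.6 kb away. That of Crhr1, a CRH receptor, lay 15.5 kb away, and within 20 kb both joined the count. None of the 3 had a peak within 1 kb of a gene end, unlike the 6 precursor genes. Among all coding genes with a peak within 10 kb, 21.0% did. The 3 receptor genes are also longer, at 42969 to 71218 bp against 1353 to 8425 bp for the members, and the difference was not tested.

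Enzymes and partners of peptide processing and breakdown had a peak at 3 of 20 genes (15.0%), next to 7.49% of all protein-coding genes. These shares are not of genes of like length, as the median was 67801.5 bp for the 20 and 17169 bp for all. With windows moved by 200 kb the count was 5 of 20 in the upward move and 1 of 20 in the downward one, so the count with peaks lay between them. Pcsk1, a prohormone convertase, had a peak 635 bp outside its span and 1072 bp upstream of its start site. Pcsk2, the other neuroendocrine convertase, had one 9438 bp upstream. Cpe, which encodes carboxypeptidase E, had one 31559 bp inside an end. Corin, the enzyme that activates atrial natriuretic peptide, had none within 10 kb.

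The share of genes with a peak changed differently with reach in the lists. For the members it was 40.0% inside the span, 60.0% within 1 kb, and stayed at 60.0% up to 50 kb. For the 50 other precursors it was 6.0% inside the span, 10.0% within 10 kb and 22% within 50 kb. Over all protein-coding genes it was 5.0% within 1 kb and 16.2% within 50 kb. Windows moved by 200 kb were in reach of 0 members up to 20 kb, and of 2 (up) and 3 (down) within 50 kb.

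**Figure D5:**
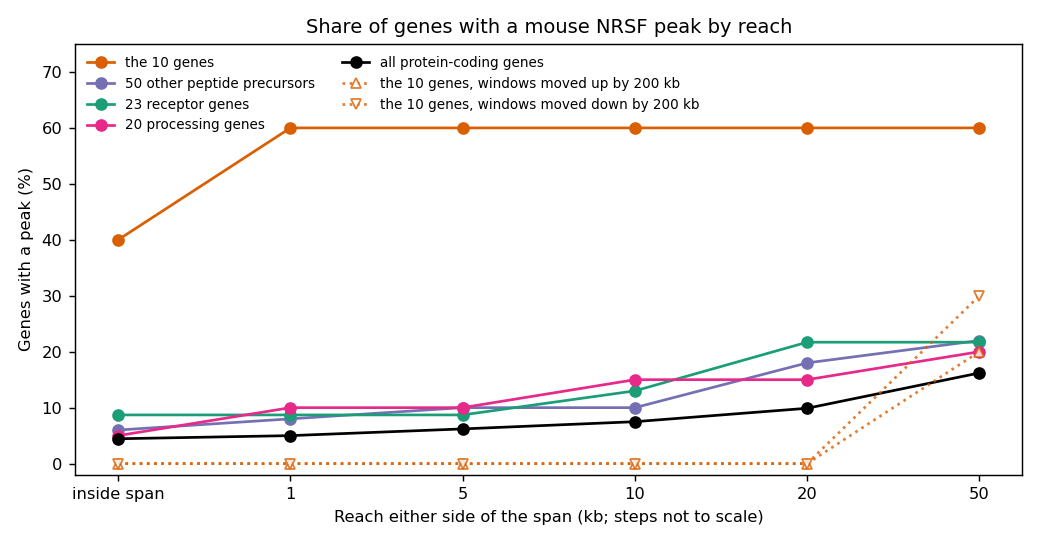
Percent of genes with a peak against the reach either side of the gene span in kb (steps not to scale), for the 10 genes, the 3 other lists and all protein-coding genes, with dotted lines for the 10 genes and moved windows. The line of the 10 genes is flat at 60.0% from 1 kb on, and the moved windows are at 0 up to 20 kb.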

How the data were processed

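The authors deposited a list of positions of NRSF peaks for mouse, with chromosome, start and end in bp and no other value. Bowtie 0.12.8 and MACS 1.4.2 and the build mm10 are named in the submitters' processing notes, without roles. The peak threshold, the way replicates were combined, and whether positions count from 0 or 1 were not given in the sources used here. Positions were read as counting from 1. Peaks were reduced to midpoints, and distances were taken to gene spans of the RefSeq table of GRCm38.p6 (protein-coding genes on placed chromosomes). Strands and start sites came from the RefSeq promoter windows of the same assembly. All 103 entries of the member list and the 3 other lists matched. Members and lists were chosen with earlier results of these data known. All members are named, and in each other list the genes with a peak, up to 5. Control windows were peaks moved by 200 kb. CpG expectation was the product of C and G counts over window length. No test was made, because there is 1 list and no replicate value. The counting was checked on planted peaks. Python 3.11.15, numpy 2.4.6, pandas 2.3.3 and matplotlib 3.10.9 were used. The dog, horse and human lists were not used here, since the genes are of mouse.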

Additional observations from a re-analysis of the deposited data

How the results depend on the processing

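The count of 6 of 10 genes did not change with a reach of 1, 5, 20 or 50 kb, or with each peak given to its nearest coding gene. It was also 6 within 10 kb of the gene ends alone, and with the peak edge in place of the midpoint. With members of at most 8425 bp, gene ends alone could not change the count, and the peak edge could only raise it. It was 4 with the span alone and 5 without bins of 10 or more peaks, this setting being added after seeing the data. That count of 5 depends on the bin border just below the Nppa peak. Over 8 results, 36 alternative values were computed, of which 28 stayed within 1.5 times the reported value and 8 did not. The 28 are no measure of stability, since some settings could hardly move a value. Counting positions from 0 shifts a peak by 1 bp, and no member window had fewer than 6 mismatches. The fall from 6 to 4 members with the span alone, at the limit of 1.5 times, was counted among the 28. With windows moved up by 50 kb, 1 gene had a window, Nppa at 5.27 kb, against 0 in the other moves of 50, 200 and 500 kb. The background share was 4.38% for genes no longer than Vip and 16.2% with a reach of 50 kb. The median distance of the members was 196 bp to the span and 774 bp to the nearest gene end. The other precursors with a peak numbered 9 within 20 kb and 11 within 50 kb, and the receptors 5 at both. No member window matched the element with at most 2, 3, 4 or 5 mismatches. Leaving out a replicate was not possible, since 1 list serves both. No paired analysis was possible because the list holds no value per replicate.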
